A study of Mus musculus with 6 samples.

Results

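Keratins are the intermediate filament proteins of epithelial cells. The 10 stratified epithelial keratins described here are Krt5, Krt14, Krt15, Krt17, Krt6a, Krt6b, Krt16, Krt1, Krt10 and Krt79, chosen by gene symbol through the RefSeq accession of each array probe. They are out of 36799 genes on the array, where an identifier without a matched symbol also counts as a gene. All 10 had at least 1 probe, 13 probes in all, and 9 of the 10 genes passed the filter on dim probes. RNA came from live CD45- cells sorted from orthotopic mammary transplants of MMTV-PyMT late carcinomas that were either RANK+/+ or RANK-/-, grown in C57BL/6 hosts with which the tumors are syngeneic. CD45 marks leukocytes, so the sort removed most immune cells, but host fibroblasts and endothelium lack it and could remain. MMTV-PyMT mice carry the polyomavirus middle T oncogene under the mouse mammary tumor virus promoter, so every group carried this transgene, and RANK is the receptor encoded by Tnfrsf11a. Each of 3 pairs set a RANK-/- RNA against a RANK+/+ RNA on arrays A and B, technical replicates with the same dye arrangement per the labels, which gave 6 two-color arrays. The published methods name a dye swap per sample, which the labels do not show, and this conflict was not settled here. The RANK-/- RNA carried Cy5 in pair 1 and Cy3 in pairs 2 and 3. Pair 1 and its dye arrangement therefore cannot be told apart. The hosts were young females.

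The arrays lay on 1 slide, and the share of gene probes well above background was 51.9% to 58.8% in each genotype's channel. The 3 pairs limit the precision throughout. Nothing in the labels tells if different tumors gave the 3 RNAs of a genotype, so p-values may measure only technical spread. Tnfrsf11a went against the labels. Its log2 ratio of RANK-/- over RANK+/+ was 2.03, 1.15 and 1.76 in pairs 1, 2 and 3 (mean 1.65 ± 0.45, SD, n = 3, adjusted p = 1.00 in limma), and its 1 probe was above background on every array in both genotypes. Where that probe lies relative to the deleted part of the gene was not given in the sources used here. Genotypes are accordingly named as the channels labeled RANK-/- and RANK+/+, and each direction below rests on those labels.

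Keratin filaments are built from heterodimers of a type I (acidic) and a type II (basic) chain. Krt14, Krt15, Krt16, Krt17 and Krt10 are type I, while Krt5, Krt6a, Krt6b, Krt1 and Krt79 are type II. In the mammary gland, Krt5 and Krt14 mark the basal layer that surrounds luminal cells, whose own keratins are Krt8 and Krt18. In skin, Krt5 and Krt14 belong to the basal layer, Krt1 and Krt10 to the layers above it, and Krt6, Krt16 and Krt17 to the hair follicle and to wounded or fast-growing epidermis.

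RefSeq promoter windows were given for 4 of the 10 keratins: Krt5, Krt14, Krt10 and Krt79. The 250 bases before the start site are shown for each keratin that had a window. Of these, Krt10 and Krt79 had a log2 ratio below 0 in all 3 pairs, whereas Krt5 and its partner Krt14 each changed sign between pairs. Krt15 and Krt16, also below 0 in all pairs, had no window. Capitals mark matches, on either strand, to the TATA box letters TATAAA, to its variant ATAAAA, to the box named CCAAT, to the AP-1 element TGANTCA, to the GC box GGGCGG or to the AP-2 element GCCNNNGGC. The variant ATAAAA was added after the windows were read, and it can overlap a match to TATAAA. Windows are from build GRCm38.p6, read 5′ to 3′ on the gene's strand.
Krt5 (chr15:101712906-101713155, minus strand): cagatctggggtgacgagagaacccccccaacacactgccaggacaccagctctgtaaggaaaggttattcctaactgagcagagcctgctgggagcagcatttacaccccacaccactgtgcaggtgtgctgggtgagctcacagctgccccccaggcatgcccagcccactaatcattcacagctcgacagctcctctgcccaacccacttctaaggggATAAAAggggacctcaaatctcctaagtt
Krt14 (chr11:100206031-100206280, minus strand): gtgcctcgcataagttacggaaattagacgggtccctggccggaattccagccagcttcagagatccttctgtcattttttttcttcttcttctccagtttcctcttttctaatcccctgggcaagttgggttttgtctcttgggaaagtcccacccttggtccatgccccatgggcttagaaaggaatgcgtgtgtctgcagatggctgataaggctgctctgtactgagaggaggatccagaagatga
Krt10 (chr11:99389365-99389614, minus strand): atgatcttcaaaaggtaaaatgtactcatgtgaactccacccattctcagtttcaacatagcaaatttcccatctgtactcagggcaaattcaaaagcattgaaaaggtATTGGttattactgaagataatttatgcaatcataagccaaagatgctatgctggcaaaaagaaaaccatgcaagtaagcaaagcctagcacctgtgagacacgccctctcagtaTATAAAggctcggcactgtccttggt
Krt79 (chr15:101940325-101940574, minus strand): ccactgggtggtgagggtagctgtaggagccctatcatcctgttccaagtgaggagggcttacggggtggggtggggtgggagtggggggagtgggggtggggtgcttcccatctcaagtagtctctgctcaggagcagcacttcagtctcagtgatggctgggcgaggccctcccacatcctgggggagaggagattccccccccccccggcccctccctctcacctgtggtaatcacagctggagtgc
Krt10 held TATAAA with its first base at -26 from the start site, and this motif was present in 12.4% of 32851 windows of the same length. Its CCAAT match lay on the opposite strand at -141, with 33.8% of windows holding that motif. Krt5 held ATAAAA at -29, as did 17.0% of windows. No match to any of these motifs was found in the windows of Krt14 and Krt79, and the AP-1, GC box and AP-2 letters were in none of the 4, against 6.7%, 32.7% and 13.7% of all windows.

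All 9 keratins tested had a mean log2 ratio below 0, from -0.71 for Krt14 to -1.71 for Krt16, while 49.0% of the 22502 genes tested had a mean below 0. None of the 9 passed the threshold in limma after Benjamini-Hochberg adjustment over all genes (adjusted p = 1.00 for each), and neither did any other gene (0 of 22502, 0%). At an unadjusted p under 0.05 in limma, 647 genes passed in either direction (2.88%), and a rank product called 9 genes, none of them a member. Of the keratins, 4 had an unadjusted p under 0.05 and a negative mean (Krt15, Krt16, Krt10 and Krt79), against 1.22% of all genes, and 0 had a positive one (1.66% of all genes). That count depended on the test and the settings. It was lowest with a trended, robust prior in limma, at 0 of 22502 genes and 0 keratins. Most keratins passed by rank product, all 9, beside 2125 genes (9.44%). Most genes passed in limma with the 6 arrays as separate replicates, 3818 (17.0%), of which 6 were keratins. That setting counts technical replicates as samples. The rank product count took the smaller of the p-values for lower and for higher, so it was looser than the limma counts. The same 4 keratins were lower in the channel labeled RANK-/- in each of the 3 pairs, against 9.65% of all genes, and 0 were higher in each (9.95%). With each array's ratios centred on their median in place of loess, Krt5, Krt14 and Krt17 joined them, giving 7 keratins against 15.4% of all genes. That scaling moved the median of all genes to 0.13, -0.19 and -0.39 in pairs 1, 2 and 3. In bulk samples, fewer cells of a type and less RNA per cell cannot be told apart. With 3 pairs, an exact sign-flip test of any gene cannot give a two-sided p below 0.25.

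**Figure D1:**
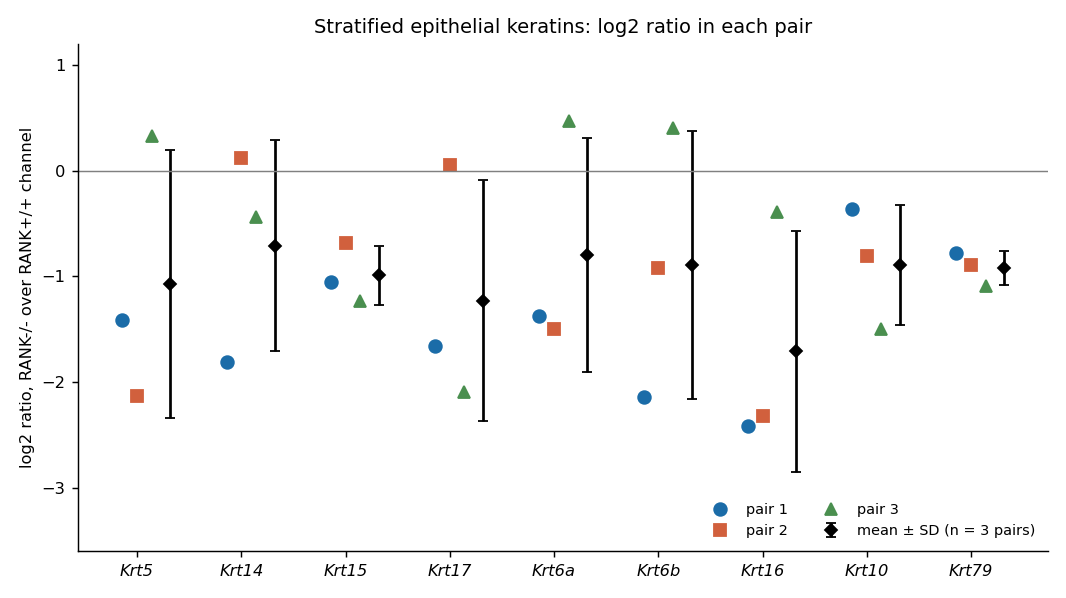
Log2 ratio of the channel labeled RANK-/- over the channel labeled RANK+/+ (y axis) for the 9 keratins tested (x axis), with 1 point per pair and the mean ± SD over 3 pairs as a black diamond. Krt15, Krt16, Krt10 and Krt79 lie below 0 in every pair, and with median centring so do Krt5, Krt14 and Krt17.

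Krt5, the type II keratin of basal cells, had a normalized log2 signal of 12.96, 10.89 and 12.57 in the channels labeled RANK-/- of pairs 1, 2 and 3, and of 14.38, 13.01 and 12.24 in those labeled RANK+/+. The groups overlapped, and pair 2 had the lowest RANK-/- channel. The log2 ratios were -1.41, -2.13 and 0.33, with a mean of -1.07 ± 1.27 (SD, n = 3; moderated SE 0.52, 95% confidence interval -2.46 to 0.32). Krt5 was thus lower in the channel labeled RANK-/- in pairs 1 and 2 and higher in pair 3, where median centring turned the ratio to -0.35. Without pair 3 the mean was -1.77, and without pair 2 it was -0.54. The other Krt5 probe gave -2.14, -1.22 and 0.31, with the order of pairs 1 and 2 exchanged.

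Krt14, the type I partner of Krt5, measured 11.92, 12.72 and 11.58 in the channels labeled RANK-/- and 13.73, 12.60 and 12.03 in those labeled RANK+/+. Its log2 ratios were -1.81, 0.12 and -0.44 (mean -0.71 ± 1.00, SD, n = 3; moderated SE 0.41, 95% confidence interval -1.83 to 0.40). The difference lay mostly in pair 1, without which the mean was -0.16. In pair 2 the channels were close, and median centring put the ratio at -0.23. The difference in log2 ratio between Krt5 and Krt14 was 0.40, -2.25 and 0.78, so the partners moved apart most in pair 2, where Krt5 was lower and Krt14 was not.

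Krt15, a type I keratin of basal cells and of the hair follicle bulge, had a log2 signal of 9.68, 8.67 and 8.41 in the channels labeled RANK-/- and of 10.73, 9.35 and 9.64 in those labeled RANK+/+. The groups overlapped, since the pair 1 RANK-/- channel lay above the other RANK+/+ channels, but each pair ran the same way. Its log2 ratios of -1.05, -0.68 and -1.23 averaged -0.99 ± 0.28 (SD, n = 3; moderated SE 0.17, 95% confidence interval -1.46 to -0.52), a 1.98-fold lower signal in the channels labeled RANK-/-. The unadjusted limma p was 0.00372, the 40th smallest of 22502, and the adjusted p was 1.00. Krt15 and Krt79 were the only 2 keratins at least 1.5-fold lower in every pair, against 0.240% of all genes, and 0.271% of all genes and no keratin were that much higher. With median centring, Krt79 fell short in pair 1 at a log2 ratio of -0.52, while Krt16 reached that fold in each pair (-2.18, -2.54 and -0.93). The share of all genes at that fold was not taken with median centring, which also moved the median of all genes.

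Krt16 had the largest mean difference of the 9 keratins. This type I chain, which pairs with Krt6 in hyperproliferative epidermis, measured 9.95, 8.27 and 9.12 in the channels labeled RANK-/- and 12.36, 10.60 and 9.51 in those labeled RANK+/+. Pairs 1 and 2 carried most of the difference, with log2 ratios of -2.42 and -2.32 against -0.39 in pair 3, and the groups overlapped. The mean was -1.71 ± 1.14 (SD, n = 3; moderated SE 0.47, 95% confidence interval -2.98 to -0.45), or 3.27-fold lower in the channels labeled RANK-/-. The unadjusted limma p was 0.0191 and the adjusted p 1.00. Krt5, Krt17 and Krt16 were the keratins with a mean at least 2-fold lower, against 0.511% of all genes, and 0.795% of all genes and no keratin had a mean at least 2-fold higher. Which keratins reached that fold depended on the processing. The series table added Krt15 (-1.05), Krt6b (-1.14) and Krt79 (-1.04), and median centring added Krt15 (-1.15), Krt10 (-1.06) and Krt79 (-1.22). The share of all genes at that fold was not taken under those settings.

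Krt17, a type I keratin of the hair follicle and of wounded epidermis, had signals of 11.73, 13.14 and 11.02 in the channels labeled RANK-/-. Those labeled RANK+/+ were nearly level, at 13.38, 13.08 and 13.12. The log2 ratios of -1.66, 0.05 and -2.10 gave a mean of -1.23 ± 1.14 (SD, n = 3; 95% confidence interval -2.49 to 0.03), and pair 2 stood apart from the other pairs. The unadjusted limma p was 0.0531. Median centring turned the pair 2 ratio of Krt17 to -0.33, and without pair 2 the mean was -1.88.

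Krt6a and Krt6b are close paralogs, type II keratins induced in wounds. Cross-hybridization between them was not tested. Krt6a measured 8.54, 6.71 and 6.96 in the channels labeled RANK-/- and 9.92, 8.21 and 6.49 in those labeled RANK+/+, with log2 ratios of -1.38, -1.50 and 0.47 (mean -0.80 ± 1.11, SD, n = 3; 95% confidence interval -2.03 to 0.42). Pair 3 ran the other way from pairs 1 and 2, and without it the mean was -1.44. Krt6b measured 6.88, 6.28 and 6.49 in the channels labeled RANK-/- and 9.02, 7.20 and 6.08 in those labeled RANK+/+. It was above background on 5 of 6 arrays in the former and 4 of 6 in the latter, with neither array of pair 3 above background for RANK+/+. Its log2 ratios were -2.14, -0.92 and 0.40 (mean -0.89 ± 1.27, SD, n = 3; 95% confidence interval -2.29 to 0.51). Without pair 1 the Krt6b mean was -0.26. The other Krt6b probe gave -3.63, -0.10 and 0.22, so for that probe the difference was nearly all in pair 1. With the normexp offset at 0 the Krt6b ratios were -2.81, -1.90 and 1.12, farther from 0 in every pair for this dim probe.

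Across the wound-associated keratins the pairs differed in which chains were lower. In pair 3, Krt17 had a log2 ratio of -2.10 while Krt6a, Krt6b and Krt16 had 0.47, 0.40 and -0.39. In pair 2, Krt17 had 0.05 while Krt6a and Krt16 had -1.50 and -2.32. The difference in log2 ratio between Krt6a and Krt16, a type II and type I pair, was 1.04, 0.83 and 0.86 (mean 0.91 ± 0.11, SD, n = 3), so Krt16 had the lower ratio in each pair. How even that difference was depended on the processing. With processed signals Krt6a had -1.62, -2.38 and 1.29 and Krt16 had -2.62, -2.58 and -0.42. Between Krt6a and Krt17 the difference was 0.28, -1.55 and 2.57 (mean 0.43 ± 2.07, SD, n = 3), with no common sign.

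**Figure D2:**
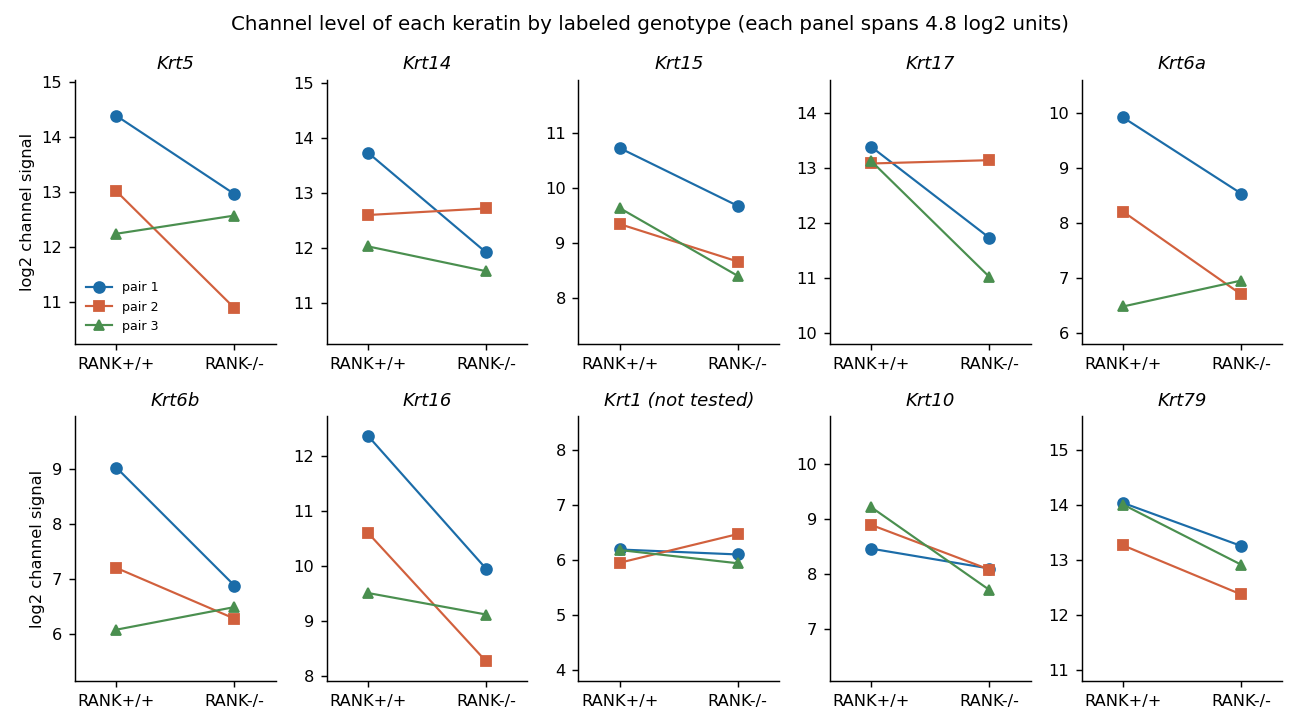
Normalized log2 channel signal (y axis) of each of the 10 keratins in the channels labeled RANK+/+ and RANK-/- (x axis), with a line joining the channels of a pair and 4.8 log2 units in every panel. The Krt15, Krt16, Krt10 and Krt79 lines all slope down, the Krt5, Krt6a and Krt6b lines of pair 3 slope up, and Krt1 lies near background.

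Krt10 and Krt1 are the keratins of suprabasal epidermis. Krt10, the type I chain, measured 8.10, 8.08 and 7.71 in the channels labeled RANK-/- and 8.46, 8.89 and 9.21 in those labeled RANK+/+. By this brighter Krt10 probe the groups did not overlap. This was so of Krt10 and Krt79 among the keratins and of 3.82% of all genes, while no keratin had all RANK-/- channels above all RANK+/+ channels (3.68% of all genes). The Krt10 log2 ratios were -0.36, -0.81 and -1.50 (mean -0.89 ± 0.57, SD, n = 3; moderated SE 0.26, 95% confidence interval -1.60 to -0.18). The unadjusted limma p for Krt10 was 0.0244 and the adjusted p 1.00. Its other probe gave -0.50, -1.06 and -0.24 (mean -0.60 ± 0.42, SD, n = 3), also below 0 in all pairs, with 4 of 6 arrays above background for RANK-/-. By that probe the groups overlapped, at 7.13 in the RANK-/- channel of pair 1 and 7.04 in the RANK+/+ channel of pair 3. In pair 3 the Krt10 probes disagreed most, at -1.50 and -0.24.

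Krt1, the type II partner of Krt10, was not well above background on any RANK+/+ channel and was above it on 2 RANK-/- channels, arrays A and B of pair 2. It was not tested, and no fold is given. Its measured log2 signals were 6.10, 6.47 and 5.94 in the channels labeled RANK-/- and 6.19, 5.95 and 6.18 in those labeled RANK+/+. Krt10 was thus measured on every array, and its partner on few.

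Krt79, a type II keratin of the hair canal and sebaceous duct, had the smallest spread over the 3 pairs with loess. Median centring gave it log2 ratios of -0.52, -1.25 and -1.88, spread wider than Krt15 at -0.82, -0.89 and -1.75. Its signals were 13.26, 12.38 and 12.92 in the channels labeled RANK-/- and 14.04, 13.27 and 14.01 in those labeled RANK+/+. The groups did not overlap, by 0.01 between the closest channels of pairs 1 and 2. The log2 ratios were -0.78, -0.89 and -1.09 (mean -0.92 ± 0.16, SD, n = 3; moderated SE 0.15, 95% confidence interval -1.32 to -0.52), or 1.89-fold lower in the channels labeled RANK-/-. The unadjusted limma p was 0.00268, the 27th smallest of 22502, and the adjusted p was 1.00.

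**Figure D3:**
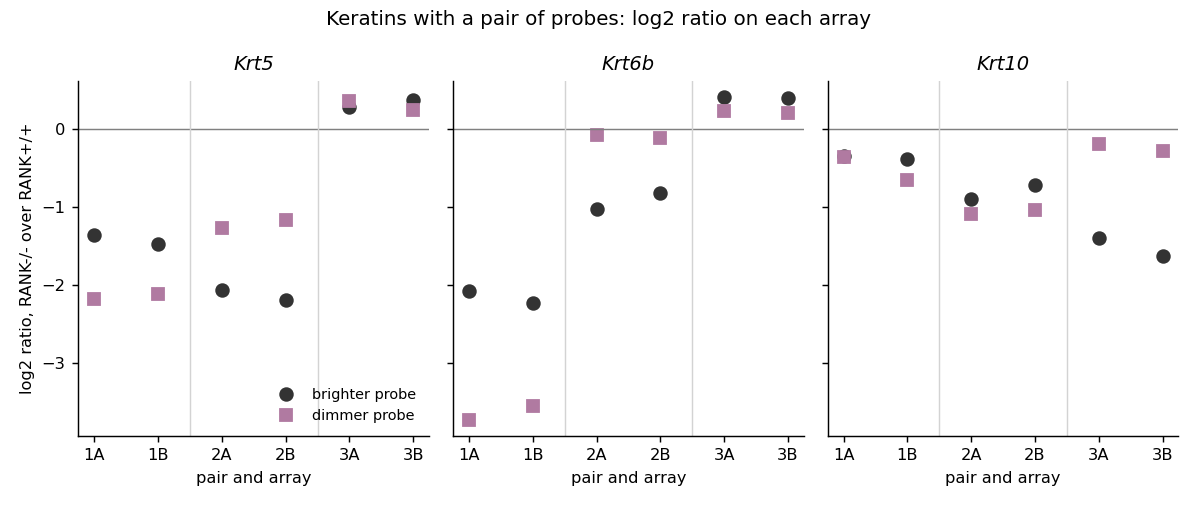
Log2 ratio (y axis) on each of the 6 arrays, named by pair and array (x axis), for the keratins with a second probe; circles are the brighter probe, which stands for the gene, and squares the dimmer probe. Arrays A and B of a pair lie close together, while probes of Krt5 and Krt6b differ in pairs 1 and 2 and those of Krt10 in pair 3.

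The difference between the repeat arrays of a pair was small beside the spread between pairs. Arrays A and B share RNAs and dyes, so their difference leaves out dye effects, which the spread between pairs can hold. Over the keratin probes that passed the filter, arrays A and B differed by a median of 0.06 and at most 0.30 on the log2 ratio scale. The SD over pairs of the same probes ranged from 0.16 for Krt79 to 2.14 for the dimmer Krt6b probe. Among the probes that stand for a gene it reached 1.27, for Krt5 and Krt6b. In pair 1, 7 of 9 keratins were at least 2-fold lower in the channel labeled RANK-/- (2.84% of all genes), namely all but Krt10 and Krt79. In pair 2 these were Krt5, Krt6a and Krt16 (3 of 9, against 2.37% of all genes), and in pair 3 they were Krt15, Krt17, Krt10 and Krt79 (4 of 9, against 3.01%). No keratin reached that fold in all 3 pairs. At least 2-fold higher were 0 of 9 keratins in each pair, against 3.66%, 2.45% and 4.91% of all genes in pairs 1, 2 and 3. A ratio below 0 was seen in 9 of 9 keratins in pair 1 (48.0% of all genes), in 7 in pair 2 (51.7%) and in 6 in pair 3 (49.8%). The median ratio of the 9 keratins was -1.41, -0.89 and -0.44 in pairs 1, 2 and 3, beside 0.02, -0.01 and 0.00 for all genes tested.

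Likeness of level over the 6 channels (3 of each genotype) is given as a description, since the channels of a pair share arrays and dyes. Krt5, Krt6a, Krt6b and Krt16 followed each other, with Pearson's r from 0.85 to 0.95. Krt14 was most like Krt6b (r = 0.80) and Krt17 (r = 0.76), and its r with its partner Krt5 was 0.43. Krt17 was not like Krt5 (r = 0.04), nor Krt10 like Krt6a (r = -0.01), whereas Krt17 and Krt10 had r = 0.70. Of 5122 genes whose level spanned at least 1 log2 unit, the 5 most like the keratins' mean were Msx2 (r = 0.991), Ahr (0.979), Art4 (0.978), the transcript NM_010115 (0.977) and Efnb1 (0.973). Msx2 is a homeobox factor and Ahr the aryl hydrocarbon receptor. Their centred log2 levels were highest in the RANK+/+ channel of pair 1, at 0.77 for Msx2 and 1.00 for Ahr, as the keratins' mean was, at 1.38.

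Among simple epithelial keratins, those of luminal cells, 0 of 6 passed in limma and 0 were lower or higher in all 3 pairs, although with median centring Krt19 and Krt23 were lower in all, as Krt19 was with the normexp offset at 0, processed signals or the series table. Both Krt8 and Krt18 were above background on every array in both genotypes. Krt8 had log2 ratios of -0.41, -0.55 and 2.08 and its partner Krt18 had 0.45, -1.34 and 1.65. In pair 3 both were thus higher in the channel labeled RANK-/-, as Krt5, Krt6a and Krt6b were, while Krt14, Krt15, Krt17, Krt16, Krt10 and Krt79 were lower. Krt19, which lacks the usual tail domain, had -1.22, -3.95 and 0.03. Krt7, Krt20 and Krt23 had means of -0.01, -0.10 and -0.15. Of 11 other stratified keratins, 6 were tested and 0 passed. Krt9 and Krt42 were lower in all pairs, against 9.65% of all genes (-0.71, -0.45 and -0.50 for Krt9, and -1.52, -2.05 and -0.06 for Krt42). The others changed sign between pairs, with log2 ratios of -0.24, -0.03 and 0.26 for Krt2, -1.49, 0.07 and 0.62 for Krt13, -0.53, -0.57 and 0.72 for Krt78 and -0.09, 0.03 and 0.32 for Krt80.

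Keratins of the inner root sheath, the follicle layer that molds the hair, were tested for 4 of 8 genes, with 0 past the threshold. Krt27 and Krt28 were lower in all pairs, against 9.65% of all genes (Krt27 and Krt73 with median centring, against 15.4%). Where both genotypes had to be above background on every array, Krt71 and Krt73 were left and neither was lower in all pairs. Krt27 had log2 ratios of -2.33, -1.12 and -1.75, and Krt28 had -4.46, -0.83 and -0.03 with 2 of 6 RANK-/- arrays above background. Krt71 had -0.83, 0.80 and -1.17, and Krt73 had -2.63, -0.63 and 0.18. Hair shaft keratins were tested for 3 of 15 genes, with means of -0.07 for Krt31, 0.06 for Krt81 and 0.08 for Krt86. Of the hair follicle markers, 7 of 8 were tested, and 5 of the 7 had a ratio below 0 in all pairs, against 9.65% of all genes. Of these 5, Tchh, Krt27 and Krt28 passed the filter mainly through the RANK+/+ channels, and with both genotypes above background on every array 3 markers were left, of which Msx2 was lower in all pairs. Krt27, Krt28, Krt71 and Krt73 are in both lists, and Msx2 is 1 of these markers. Their summed linear signal ran from 959 to 1.03e+03 in the channels labeled RANK-/- and from 1.48e+03 to 1.23e+04 in those labeled RANK+/+, with log2 ratios of -3.58, -0.56 and -0.74. Krt25 was not above background on any RANK-/- array, and Tchh, the trichohyalin gene of the inner root sheath, had ratios of -6.01, -1.85 and -1.12 and was above background on 3 of 6 RANK-/- arrays and 6 of 6 RANK+/+ arrays. The part of these markers in the keratin values was not tested. Without pair 1, where their ratio was furthest from 0, Krt15, Krt17, Krt16, Krt10 and Krt79 had means of -0.96, -1.02, -1.36, -1.16 and -0.99, and Krt5, Krt6a, Krt6b and Krt14 had -0.90, -0.51, -0.26 and -0.16.

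Markers of other cells are given by their summed signal, in which bright genes weigh most. Keratinocyte markers, 4 of 8 tested, had summed log2 ratios of -0.74, -0.25 and 0.40 (summed signal 1.87e+03 to 2.74e+03 for RANK-/- and 2.08e+03 to 3.40e+03 for RANK+/+), and the epidermal marker Ivl was above background on no channel. Basal myoepithelial markers, 8 of 8 tested, had 0.37, -0.52 and -0.45 (5.10e+04 to 6.34e+04 against 4.24e+04 to 8.65e+04), with medians over the genes of 0.40, -0.38 and 0.03. Luminal markers, 8 of 8 tested, had 0.38, -1.03 and 1.51 (1.16e+05 to 4.04e+05 against 1.42e+05 to 2.37e+05). Fibroblast markers, 6 of 6 tested, had 0.17, 0.84 and 2.25 (1.37e+05 to 2.22e+05 against 4.65e+04 to 1.41e+05). Leukocyte markers, 7 of 8 tested, had -1.61, -0.10 and 0.01 (7.68e+03 to 9.95e+03 against 7.65e+03 to 3.05e+04), with medians of -0.28, 0.10 and 0.01. S100a8 (-3.99) and S100a9 (-4.12) of this list, the latter chosen after its values were seen, carried the pair 1 sum. In that pair Ptprc, the CD45 gene, had -0.93, Cd3e 0.02 and Itgam 0.49. Which cells gave the S100a8 and S100a9 signal was not tested. Sebaceous gland markers, 4 of 6 tested, had -0.54, -0.03 and 0.67, and endothelial markers, 6 of 6 tested, had 0.01, -0.16 and 0.57. The part of each in the keratin values was not tested.

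**Figure D4:**
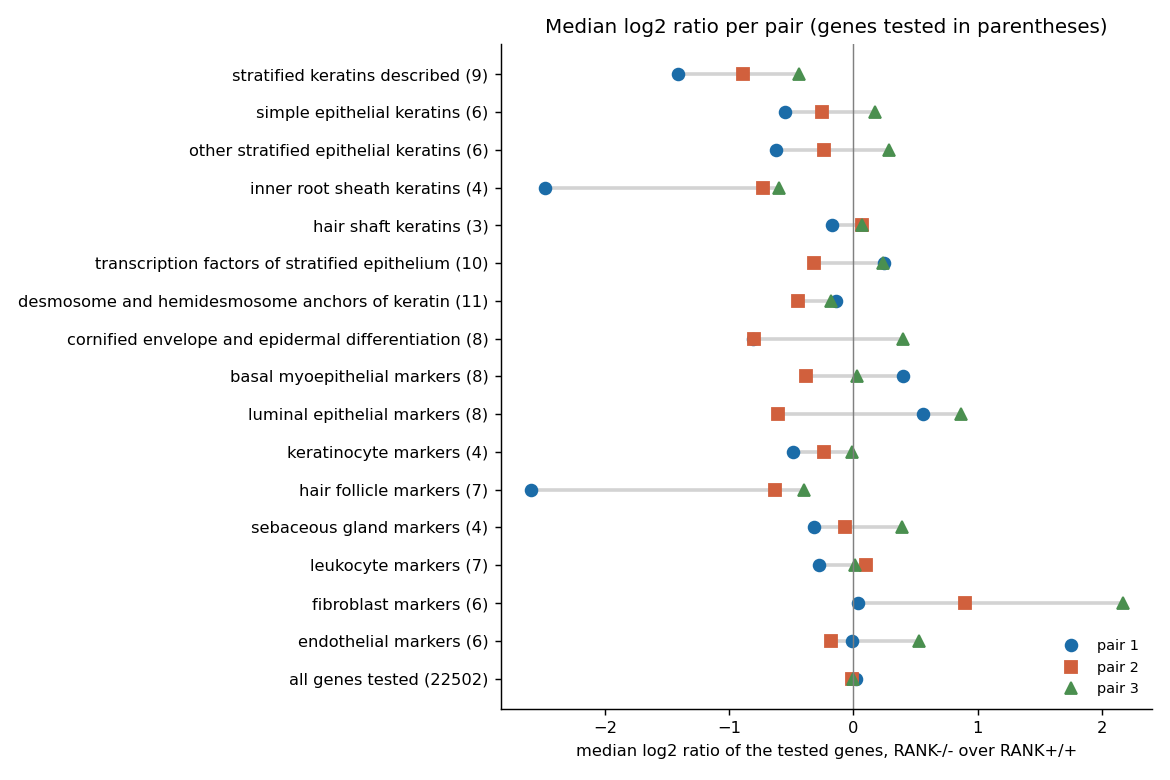
Median log2 ratio of the tested genes (x axis) in each of the 3 pairs (points) for the keratins described, the other gene lists and all genes tested (y axis, number of genes tested in parentheses). The keratins' medians of -1.41, -0.89 and -0.44 lie below 0 in every pair, as do those of inner root sheath keratins, keratin anchors, hair follicle markers and keratinocyte markers, while fibroblast markers lie above 0. The medians of the anchors (pair 1), the inner root sheath keratins (pair 2) and the keratinocyte markers (pairs 1 and 3) turn above 0 under at least 1 other setting, to 0.10, 0.08, 0.16 and at most 0.19.

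Desmosomes and hemidesmosomes anchor keratin filaments to the membrane. Of 13 such genes, 11 were tested, 0 passed, and 4 were lower in all pairs, against 9.65% of all genes. That count was 3 with median centring (15.4% of all genes), 5 with the series table (9.75%) and 6 of 13 without the filter on dim probes (10.3%). Dsp, which encodes desmoplakin, the plaque protein that binds keratin, had log2 ratios of -1.88, -1.40 and -1.35 (mean -1.54 ± 0.29, SD, n = 3, adjusted p = 1.00 in limma), or -1.25, -0.92 and -0.94 by the mean over its probes. Jup, for plakoglobin, had -0.50, 0.31 and -0.03. Itga6 had 0.26, -0.70 and -0.79, and Plec, for plectin, had -0.01, -0.01 and 0.71.

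Transcription factors of stratified epithelium were tested for all 10 genes, with 0 past the threshold. In all pairs 1 was lower and 0 were higher, against 9.65% and 9.95% of all genes. With median centring or the mean over probes, 2 were lower in all pairs, against 15.4% and 9.71% of all genes. With no background correction, processed signals or the series table, 0 were, and the series table had 1 higher. Trp63, the p63 factor of basal cells that drives Krt5 and Krt14, had log2 ratios of 0.28, -0.02 and 0.17 by its brightest probe. Its direction depended on the probe, since the mean over its probes gave -0.59, -0.55 and -0.17. Klf4 had -0.13, -0.23 and 1.16 and Tfap2c had 1.04, 0.59 and -0.09. Genes of the cornified envelope, the end product of epidermal differentiation, were tested for 8 of 12, with 0 past the threshold and 0 lower or higher in all pairs. With no background correction, 1 of them was lower in all pairs. Lor, for loricrin, had 0.48, -0.92 and -0.27, and Tgm1, a transglutaminase, had 0.03, -1.69 and 1.56. Sbsn had -1.13, -0.17 and 0.71 and Dmkn had -2.01, -1.71 and 1.56, so in pair 3 they ran the other way from Krt10.

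**Figure D5:**
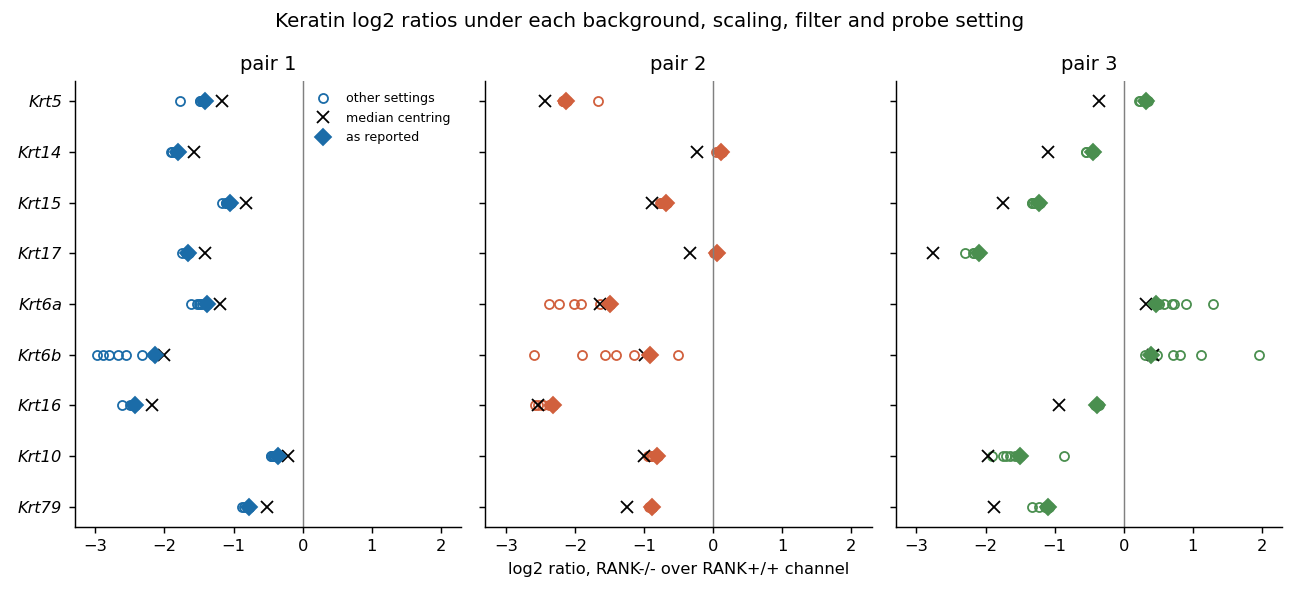
Log2 ratio (x axis) of the 9 keratins tested (y axis) in pairs 1, 2 and 3 (panels), as reported (diamond), with median centring (cross) and under the other background, scaling, filter and probe settings (open circles; 10 settings in all). Signs agree across settings except with median centring, where Krt5 in pair 3 and Krt14 and Krt17 in pair 2 fall below 0.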

How the data were processed

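Two-color SurePrint G3 Mouse arrays had been scanned and extracted by the authors with Feature Extraction 10.7.3.1. The deposited median spot and background intensity values were unnormalized. The deposited processed intensity and log10 ratio columns and the authors' log2 series table, whose direction was set against the scanner ratios (RANK-/- over RANK+/+ on every array), served as alternatives or checks.

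Median signals were corrected with normexp (offset 50) in limma 3.58.1 (R 4.3.3). Control spots (3671) and outlier spots (212 to 260 per array) were removed, followed by intensity loess and Aquantile. Arrays A and B were averaged. A probe was kept where 1 genotype's channel exceeded background on arrays A and B in 2 or more pairs, and the brightest stood for its gene. An intercept model over 3 pairs was fitted to 22502 genes, with a threshold of 0.05 after Benjamini-Hochberg adjustment. The test was checked on simulated data. RefSeq accessions (GRCm38.p6) gave symbols for 28026 of 55681 probes. Probes without a symbol counted as genes under their own identifier, and 14672 of the 22502 genes tested had a symbol.

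The keratins and the gene lists were chosen with earlier results of these data known. All keratins with every probe are named. In lists, any gene could be named where at most 6 were tested, otherwise the 2 tested genes listed first and the 2 brightest. Krt25 and Ivl are named as untested markers and S100a9 after its values were seen. The 5 genes most like the keratins' mean over 6 channels are also named. Alternatives covered background, scaling, filter, probe choice, replicate handling, dye, rank product and leaving out each pair.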

Additional observations from a re-analysis of the deposited data

How the results depend on the processing

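Each of the 9 keratins kept a negative mean log2 ratio under every alternative that gave one, and 2 calls changed. With the 6 arrays as separate replicates, which counts technical replicates as samples, 298 genes and 2 keratins passed in limma, Krt15 (log2 ratio -0.99, adjusted p = 0.0138) and Krt79 (-0.92, adjusted p = 0.00794). With the pair as a random replicate block over 6 arrays, 13 genes and 0 keratins passed. Without a replicate block, 0 genes passed (830 at an unadjusted p under 0.05, 3 of them keratins). Deviations of channels of the same pair from their genotype means had r of -0.034, -0.218 and -0.041 across genes. With 3 channels per genotype, these values cannot tell if the RNAs of a pair were matched in any way beyond sharing arrays. A rank product called 9 genes and no keratin, with adjusted p from 0.107 for Krt16 to 0.921 for Krt14. The number of keratins lower in all pairs was 7 with median centring and 4 to 7 when each pair was left out in turn. Over the remaining pairs it was 4 of 9 without pair 1, 6 without pair 2 and 7 without pair 3, against 25.0%, 26.6% and 17.5% of all genes. The keratins' median log2 ratio stayed between -1.15 and -0.86. Krt6b could not be tested when every array had to be above background in both genotypes, and Krt1 entered only without the filter. Dim probes such as those of Krt6b are limited by signal over background, and their ratios shrink with the normexp offset.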

Other observations

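Fibroblast markers differed most in pair 3, where they were higher in the channel labeled RANK-/-. In that pair Krt5, Krt6a and Krt6b were also higher in that channel, while Krt14, Krt15, Krt17, Krt16, Krt10 and Krt79 were lower. The keratins' median was furthest from 0 in pair 1, at -1.41, where the fibroblast markers' median was 0.04. Col1a2, a chain of type I collagen, had log2 ratios of RANK-/- over RANK+/+ of 0.61, 0.85 and 2.37 (mean 1.28 ± 0.96, SD, n = 3), and Col1a1, the other chain of that collagen, had 0.68, 0.30 and 1.94. Pdgfra, a receptor of fibroblasts, had 0.16, 0.20 and 1.26, whereas Col3a1, Dcn and Lum were below 0 in pair 1, at -0.08, -0.71 and -0.23. None passed in limma (adjusted p = 1.00). With median centring the median of all genes in pair 3 was -0.39.

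The 3 pairs were not alike over all genes. Pearson's r between their log2 ratios, across genes, which are not independent replicates, was -0.279 for pairs 1 and 2, 0.178 for pairs 1 and 3 and -0.079 for pairs 2 and 3.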
